A study of Mus musculus with 8 samples.

Results

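The genes described here encode the receptors through which hormones and nerves drive the exocrine pancreas, and the channels and pumps that turn receptor occupancy into calcium signals in the acinar cell. They were taken by symbol from a list of 10 genes (Cckar, Chrm3, Sctr, Vipr1, Itpr1, Itpr2, Itpr3, Atp2a2, Stim1 and Orai1), keeping features of the array annotated to that gene alone and, where a gene had several, the one with the highest mean level. Of these, 9 were measured among the 18820 genes tested. Itpr1 had 0 features listed under its symbol and was not analysed here.

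The study compared mouse pancreas of 2 groups, wild type and inducible Sel1L knockout, on 4 arrays each, and asked how loss of Sel1L, which works with the ubiquitin ligase Hrd1 to degrade misfolded proteins of the endoplasmic reticulum (ER), alters gene expression. Both groups were homozygous for a Sel1l allele with exon 6 between loxP sites, were littermates labelled C57BL/6J (the floxed allele was made in C57BL/6N embryonic stem cells), were 8 to 20 weeks old, and received tamoxifen on each of 3 days, at 5 μl of a 5 mg/ml solution per g of body weight. The knockout group alone carried a Cre recombinase fused to the estrogen receptor under an actin promoter, which is active in many tissues, so loss of Sel1L in the pancreas, its loss elsewhere and the activity of Cre cannot be told apart. The labels do not say that each array is a separate animal, and the p-values therefore reflect sample-to-sample spread that could be technical. The time between tamoxifen and tissue collection is not given in the sources used here.

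Acinar cells store digestive enzymes in granules and release them when stimulated. Cholecystokinin and acetylcholine act through receptors coupled to Gq, phospholipase C makes inositol trisphosphate (IP3), and IP3 receptors release calcium from the ER. The ER store is refilled by SERCA pumps, helped by calcium entry when the store runs low, while secretin and vasoactive intestinal peptide (VIP) act mainly through Gs and cyclic AMP.

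All levels are deposited log2 values of whole-transcript arrays, and all differences are log2, knockout minus wild type. A gene is said to have risen or fallen where limma's Benjamini-Hochberg adjusted p over all 18820 genes was under 0.05. In whole tissue, fewer cells of a type and less RNA per cell cannot be told apart. The array medians over all features were 4.94 to 5.05. Pearson correlations between arrays over genes, which are not independent replicates, were 0.979 to 0.992 within wild type, 0.992 to 0.995 within knockout and 0.968 to 0.983 between the groups. Wild type replicate 2 stood apart from the other wild type arrays in the macrophage markers, with a mean level of 6.01 where the other 7 arrays had 7.12 to 8.21, and in the stellate cell and fibroblast markers, with 6.74 where the others had 7.52 to 8.16. Sel1l itself was 12.38 ± 0.0105 (SD, n = 4) in wild type and 11.62 ± 0.114 (SD, n = 4) in knockout, a difference of -0.76 (SE 0.0788, limma adjusted p = 0.000196).

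Of the 9 measured genes, 2 rose and 3 fell. Itpr2, an IP3 receptor, and Atp2a2, the SERCA pump that loads the ER, rose 1.45-fold and 1.47-fold. The receptor genes Vipr1 and Cckar fell by 0.58 and 0.29 on the log2 scale, and Orai1, the pore of the store-operated channel, fell by 0.46. Chrm3, Sctr, Itpr3 and Stim1 did not pass the threshold. The 5 genes called are 55.6% of those measured, where 28.7% of all genes tested were called (16.1% higher, 12.6% lower). Dim genes, which are called less often, lower that share. When only genes above the median level were tested, 6 of 8 of the listed genes and 4176 of 9410 of all genes were called. The balance of directions over all genes depended on scaling: the share of calls that were higher was 56.0% as deposited, 42.9% with quantile normalization, 36.3% with median-centred arrays and 48.1% with cyclic loess. Without Sel1L knockout replicate 3 both counts were smaller, with 2204 genes higher in place of 3027 and 1517 lower in place of 2379. The share of calls that were higher was then 59.2%. The median difference of the 9 genes was -0.25, against -0.04 over all genes and 0.13 over genes above the median level.

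**Figure D1:**
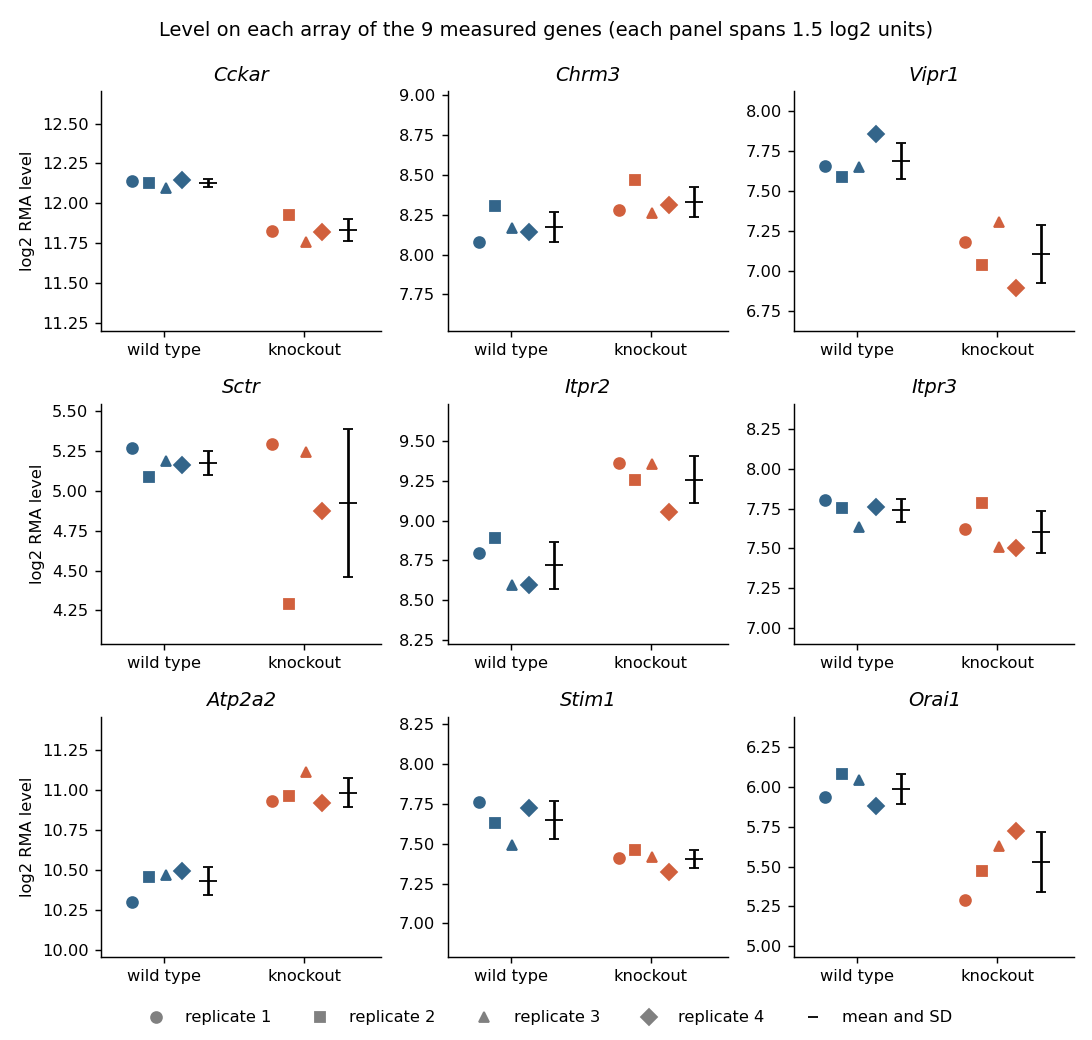
Deposited log2 level of each of the 9 measured genes on each array, 4 wild type (blue) and 4 Sel1L knockout (orange), with symbols for the replicate number and black bars for mean and SD; every panel spans the same range of 1.5 log2 units. The groups do not overlap for Cckar, Vipr1, Itpr2, Atp2a2, Stim1 and Orai1, and overlap for Chrm3, Sctr and Itpr3.

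In 6 of the 9 genes (66.7%) wild type and knockout values did not overlap, which held for 32.2% of all genes tested. That share includes dim genes, while none of the 9 lay below the median of every array. It was not computed among genes above the median level, where calls were more frequent. For each of these 6 the exact two-sided permutation test gave p = 0.0286, the smallest that 4 against 4 arrays allow. Groups that do not overlap always give this value, so it adds nothing to the count. It is not adjusted for the number of genes.

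Among the receptors, Cckar (Entrez gene 12425) encodes the cholecystokinin receptor of the pancreas. Its level was 12.14, 12.13, 12.09 and 12.14 in wild type replicates 1 to 4. In the knockout arrays it was 11.83, 11.92, 11.76 and 11.82. Every knockout array was therefore below every wild type array, with the wild type values spanning 0.05. The difference was -0.29 (SE 0.0705, limma adjusted p = 0.0133), from 12.13 ± 0.0230 to 11.83 ± 0.0684 (SD, n = 4 each). It was the smallest in size of the 5 differences called.

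Chrm3 (Entrez gene 12671) encodes the M3 muscarinic receptor, through which the vagus nerve acts on acinar cells. Its level was 8.08, 8.30, 8.17 and 8.14 in wild type. The knockout values were 8.28, 8.46, 8.26 and 8.31. The groups overlapped, because wild type replicate 2 lay above 2 of the knockout arrays. The difference was 0.16 with a 95% interval from -0.03 to 0.34 (limma adjusted p = 0.179), an interval that includes 0. After cyclic loess it was 0.02, and after quantile normalization 0.04.

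The receptor for VIP and the related peptide PACAP, Vipr1 (Entrez gene 22354), signals through Gs. Its level was 7.66, 7.59, 7.65 and 7.85 in wild type and 7.18, 7.04, 7.31 and 6.89 in knockout. The groups were well apart, with the highest knockout array 0.28 below the lowest wild type array. The difference was -0.58 (SE 0.106, limma adjusted p = 0.00364). Vipr1 also had a dimmer feature, the only second feature among these genes. On it the mean level was 5.78 in wild type and 5.53 in knockout, and the difference was -0.25 (SE 0.0832, limma adjusted p = 0.0468 when every feature was tested by itself). Both features were thus lower in knockout, by unequal amounts.

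Sctr (Entrez gene 319229) encodes the secretin receptor, best known from pancreatic duct cells. Its level was 5.27, 5.09, 5.19 and 5.16 in wild type. In knockout it was 5.29, 4.29, 5.24 and 4.87. Knockout replicates 1 and 3 lay within or above the wild type range, and replicates 2 and 4 below it. The SD was 0.462 in knockout and 0.0749 in wild type, the widest knockout spread among the 9 genes. The difference of -0.25 had a 95% interval from -0.69 to 0.19 (limma adjusted p = 0.348), and without Sel1L knockout replicate 2 it was -0.04. Sctr lay at most 0.28 above an array's median, so the size of its difference is rough. Of the ductal markers 1 of 10 measured fell and 0 rose, and their mean level was 7.51 to 7.82 on the wild type arrays and 7.49 to 7.68 on the knockout arrays; their part in the spread of Sctr was not tested. The mean hides unlike members, of which Muc1 fell by 2.39. The others did not pass the threshold and went both ways. Krt19 (0.30), Krt7 (0.37), Car2 (0.35), Cftr (0.25) and Slc4a4 (0.25) were above 0. Sox9 (-0.32), Tff2 (-0.21), Onecut1 (-0.04) and Anxa3 (-0.04) were below it. The list median was 0.10.

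The IP3 receptors open the ER store. Itpr2 (Entrez gene 16439) encodes the type 2 receptor, which together with type 3 carries most IP3-driven release in acinar cells. Its level was 8.80, 8.89, 8.60 and 8.60 in wild type and 9.36, 9.26, 9.36 and 9.05 in knockout. The lowest knockout array lay 0.16 above the highest wild type array. The difference was 0.54 (SE 0.104, limma adjusted p = 0.00506), from 8.72 ± 0.147 to 9.26 ± 0.145 (SD, n = 4 each).

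Itpr3 (Entrez gene 16440), which encodes the type 3 receptor, did not pass the threshold. Its level was 7.81, 7.76, 7.63 and 7.76 in wild type and 7.62, 7.78, 7.51 and 7.50 in knockout. Knockout replicate 2 lay within the wild type range and the other 3 knockout arrays lay below it. The difference was -0.14, with a 95% interval from -0.33 to 0.06 (limma adjusted p = 0.265). It passed the threshold under 1 of 17 other settings, quantile normalization, at -0.29 (adjusted p = 0.0482). The 95% intervals of Itpr2 (0.30 to 0.77) and Itpr3 did not meet, but the difference between the 2 genes was not tested.

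Atp2a2 (Entrez gene 11938) encodes SERCA2, the pump that returns cytosolic calcium to the ER. Its level was 10.30, 10.46, 10.47 and 10.49 in wild type. The knockout values were 10.93, 10.97, 11.12 and 10.92. The groups were separated by 0.43, the widest gap among the 9 genes. Its difference of 0.55 (SE 0.0815) had the smallest p of the 9 (limma adjusted p = 0.00127), and it lay between 0.47 and 0.57 under the 17 other settings.

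Store-operated entry uses an ER sensor, Stim1, and a plasma membrane pore, Orai1. The level of Orai1 (Entrez gene 109305) was 5.93, 6.08, 6.04 and 5.88 in wild type and 5.29, 5.47, 5.63 and 5.72 in knockout. All knockout arrays were lower, and knockout replicate 4 lay 0.15 below the lowest wild type array. The difference was -0.46 (SE 0.106, limma adjusted p = 0.0116). Orai1 lay at most 1.14 above an array's median, so the size of its fall is rough.

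For Stim1 (Entrez gene 20866) the wild type levels were 7.76, 7.63, 7.49 and 7.72. The knockout levels were 7.41, 7.46, 7.42 and 7.32. No knockout array reached the wild type range, although wild type replicate 3 lay only 0.03 above the highest of them. The difference of -0.25 (SE 0.083, 95% interval -0.43 to -0.06) just missed the threshold (limma adjusted p = 0.0503). It passed under 9 of 17 other settings, with -0.40 after quantile normalization (adjusted p = 0.00976), -0.39 after cyclic loess (0.0100) and -0.30 without wild type replicate 3 (0.0255). Several other passes left the difference at -0.25 and were narrow, such as 0.0492 with the mean of all features. Stim1 missed the threshold with the replicate block (0.0948). It also missed it without any other single array, with 0.119 as the highest adjusted p.

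**Figure D2:**
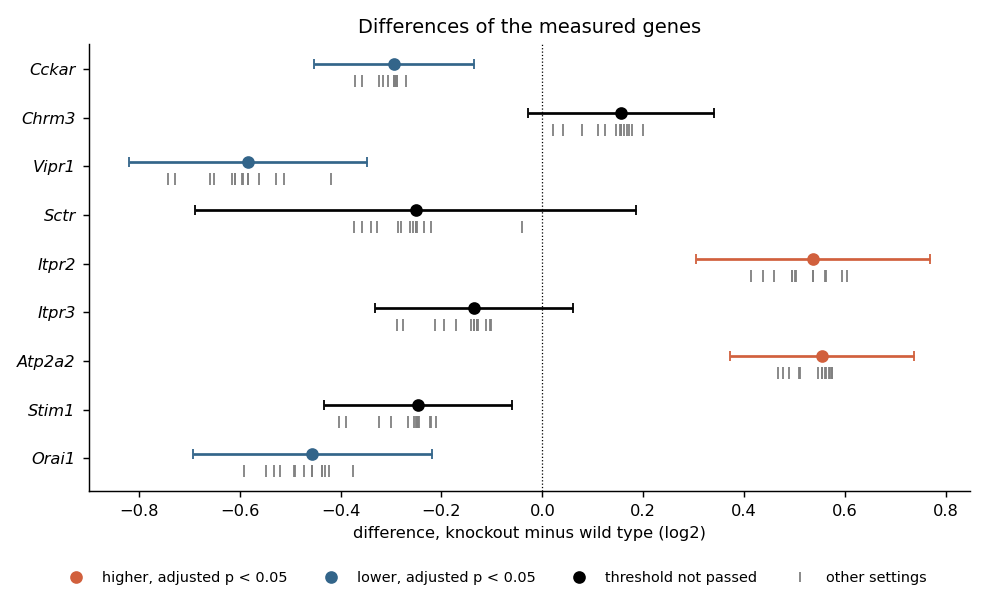
Difference between the groups for each measured gene (points, log2, knockout minus wild type) with its 95% limma interval (bars), and the same difference under the other processing settings (grey ticks). Atp2a2 and Itpr2 lie right of 0, Cckar, Vipr1 and Orai1 left of it, and the intervals of Chrm3, Sctr and Itpr3 cross 0.

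RefSeq promoter sequences (GRCm38.p6) were at hand for Chrm3, Vipr1, Itpr2, Itpr3, Stim1 and Orai1, but not for Cckar, Sctr, Itpr1 and Atp2a2. The 250 bases before the start site are shown for the 3 genes among these that changed, 5′ to 3′ on the strand of the gene. Capitals mark CCAAT and CCACG on either strand, the parts of the ER stress response element (ERSE), through which ATF6 and XBP1 are known to act. A match is a description of letters, not evidence of a bound site.
Itpr2, chr6:146502224-146502473, minus strand: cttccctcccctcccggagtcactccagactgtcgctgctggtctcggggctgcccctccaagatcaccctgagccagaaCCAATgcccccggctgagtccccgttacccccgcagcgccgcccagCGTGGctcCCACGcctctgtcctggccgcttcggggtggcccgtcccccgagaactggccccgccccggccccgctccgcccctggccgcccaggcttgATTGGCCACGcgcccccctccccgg
Orai1, chr5:123014824-123015073, plus strand: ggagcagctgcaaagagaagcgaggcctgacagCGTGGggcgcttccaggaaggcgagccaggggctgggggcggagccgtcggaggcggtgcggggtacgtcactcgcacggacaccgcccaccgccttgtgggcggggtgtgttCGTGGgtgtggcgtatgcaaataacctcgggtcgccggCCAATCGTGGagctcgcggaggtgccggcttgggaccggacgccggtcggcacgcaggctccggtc
Vipr1, chr9:121642466-121642715, plus strand: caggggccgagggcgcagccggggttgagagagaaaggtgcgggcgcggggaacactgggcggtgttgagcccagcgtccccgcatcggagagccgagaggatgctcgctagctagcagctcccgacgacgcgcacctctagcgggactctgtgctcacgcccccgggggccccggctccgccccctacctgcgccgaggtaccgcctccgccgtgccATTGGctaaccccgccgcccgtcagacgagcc

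The whole ERSE (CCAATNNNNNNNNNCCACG) was in 0 of the 6 promoters and in 0.113% of all 32851 RefSeq promoters of this length; both strands were searched. ERSE-II (ATTGGNCCACG) was likewise in 0 of 6, and in 0.0304% of all. CCAAT was in 3 of the 6 and in 33.8% of all, and CCACG in 4 of the 6 and in 28.3% of all. These short motifs lie within both longer motifs, so the searches overlap. In Itpr2, which rose, and in Orai1, which fell, a CCAAT and a CCACG on opposite strands abut with no base between them, as the last capitals of each sequence show. The cyclic AMP response element (TGACGTCA) was in 0 of the 6 and in 1.55% of all.

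The other genes of secretagogue and calcium signalling were taken from 12 lists by role. Of 172 measured, 32 rose and 30 fell (36.0%, against 28.7% of all genes). Among genes above the median level the shares were close, with 58 of 129 pathway genes and 4176 of 9410 of all genes called. A list share near that of all genes says nothing about the list as a group. The split into rises and falls was 24 and 37 after quantile normalization, 27 and 42 after median centring, and 24 and 35 after cyclic loess. Without Sel1L knockout replicate 3, 26 rose and 18 fell, and without Sel1L knockout replicate 1, 27 rose and 19 fell. Of the 62 called, 38 kept their call under every other setting, and the genes named with a value below come from these unless said otherwise.

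**Figure D3:**
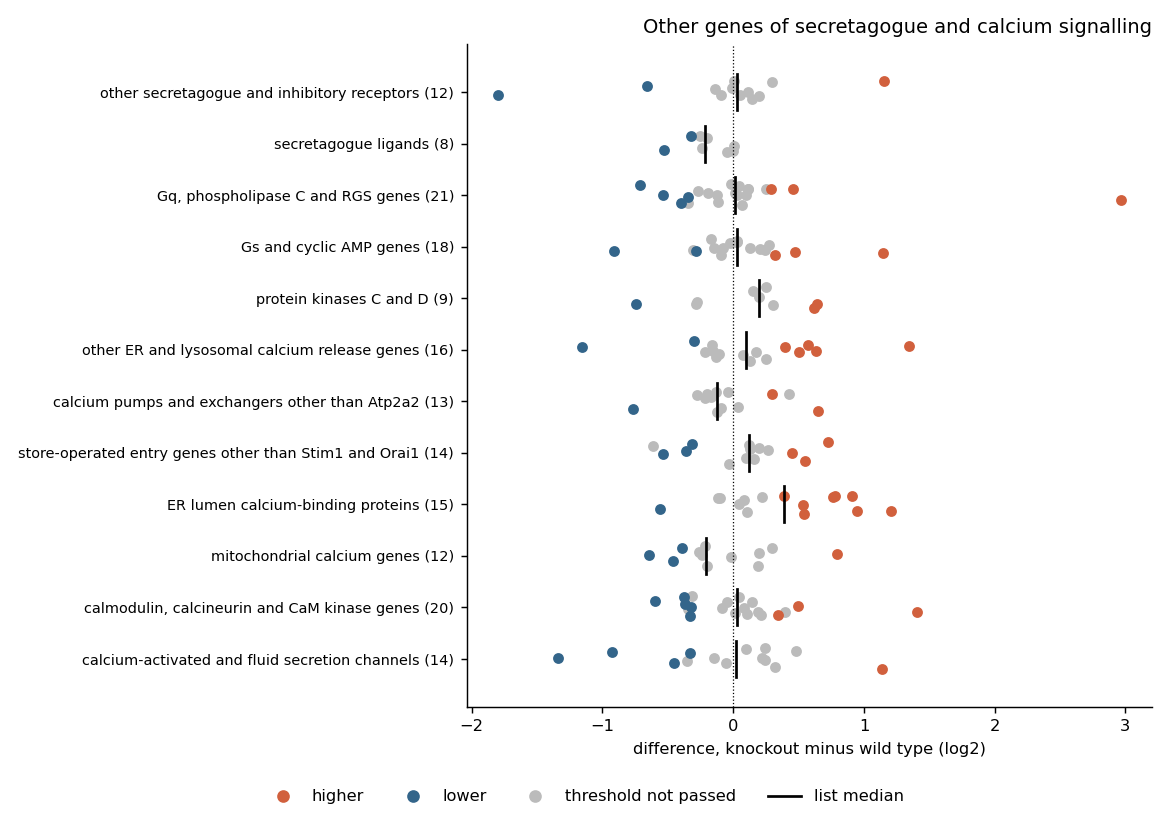
Difference of each measured gene (points, log2, knockout minus wild type) in the 12 lists of other signalling genes, with the number measured in brackets, calls coloured and the list median as a black line. The list of ER lumen calcium-binding proteins has the highest median, 0.39, and Rgs2 and Grpr are the outermost points.

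Other receptors of the exocrine pancreas differed in both directions. Of 12 measured, 1 rose and 2 fell (25.0%, below the 28.7% of all genes), and the list median was 0.03, so the count says nothing about receptors as a group. Grpr, the receptor for gastrin-releasing peptide, a further Gq-coupled secretagogue receptor, was 8.16, 8.32, 8.48 and 8.41 in wild type and 6.48, 6.87, 6.40 and 6.41 in knockout. It fell by 1.80 (SE 0.121, limma adjusted p = 1.68e-05), a 3.48-fold fall with wide separation of the groups. Vipr2 encodes the second VIP receptor. It was 8.54, 8.35, 8.20 and 8.62 in wild type and 9.39, 9.64, 9.47 and 9.82 in knockout, a rise of 1.15 (SE 0.124, limma adjusted p = 0.00024) beside the fall of 0.58 in Vipr1. Chrm1, the M1 muscarinic receptor, fell by 0.66 (SE 0.142), a rough size at a knockout mean of 4.94, close to the array medians. The gastrin receptor gene Cckbr (-0.10), the PACAP receptor gene Adcyap1r1 (0.00) and the somatostatin receptor gene Sstr2 (-0.01) did not pass the threshold. All 8 genes of secretagogue ligands lay below the median of every array, and of these 0 rose and 2 fell (25.0%), neither under every setting.

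Between receptor and IP3, 3 of 21 genes rose and 4 fell (33.3%, against 28.7% of all genes). Rgs2, a protein that shuts off Gq, had the largest difference of all 172 genes. It was 6.50, 5.87, 6.04 and 5.93 in wild type and 8.66, 8.85, 9.05 and 9.65 in knockout, a 7.82-fold rise (2.97, SE 0.214, limma adjusted p = 2.68e-05). Gna14, a Gq-family alpha subunit, fell by 0.53 (SE 0.127), Pip5k1c, which makes the phospholipase C substrate, by 0.71 (SE 0.12), and Inpp5a, which degrades IP3, by 0.35 (SE 0.0831). Plcg1 rose by 0.46 (SE 0.0737; 0.29 after quantile normalization). The main Gq genes Gnaq (-0.19, adjusted p = 0.109) and Gna11 (-0.01, adjusted p = 0.916) did not pass the threshold.

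Of 18 genes of Gs and cyclic AMP signalling 3 rose and 2 fell (27.8%, against 28.7% of all genes). Crem, a transcription factor gene induced by cyclic AMP, rose by 1.15 (SE 0.107), and Prkar2b, a regulatory subunit of protein kinase A, fell by 0.91 (SE 0.166), a rough size because its knockout levels of 3.88 to 4.37 lay below the array medians. Among 9 protein kinase C and D genes 2 rose and 1 fell (33.3%). Prkce rose by 0.64 (SE 0.0957) and Prkcz by 0.62 (SE 0.0937), or by 0.33 when its features were averaged. Prkca fell by 0.74 (SE 0.12). The kinases thus differed in direction within the family.

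Among 16 other genes of calcium release, 5 rose and 2 fell (43.8%, against 28.7% of all genes). Erlin1 encodes an ER membrane protein that, with the ubiquitin ligase RNF170, is known to direct activated IP3 receptors to degradation. It was 6.55, 6.73, 7.09 and 6.91 in wild type and 8.23, 7.92, 8.12 and 8.39 in knockout, a 2.54-fold rise (1.34, SE 0.137, limma adjusted p = 0.000182). Rnf170 rose by 0.63 (SE 0.144, adjusted p = 0.0107) and was picked out with its value known. Erlin2, the partner of Erlin1, was at 0.25 and did not pass (adjusted p = 0.0675). Tmbim6 and Tmco1, which encode ER membrane proteins linked to calcium leak, rose by 0.57 (SE 0.0722) and 0.50 (SE 0.0877). Lrmp, whose ER membrane product associates with IP3 receptors, fell by 1.16 (SE 0.134), from 6.49 to 6.93 in wild type down to 5.37 to 5.80 in knockout.

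The list of ER lumen calcium-binding proteins had the highest median, 0.39, with 8 of 15 higher and 1 lower (60.0%, against 28.7% of all genes). The list is broader than its name. Not all of its products, among them those of Selenok, Tmx1, Sdf4 and Nucb1, are calcium binders of the ER lumen. Hsp90b1 rose by 1.21 (SE 0.114), Nucb1, nucleobindin 1, by 0.91 (SE 0.0866) and Hspa5, the chaperone BiP, by 0.76 (SE 0.0904). Calreticulin, the main calcium buffer of the ER lumen (Calr, picked out with its value known), rose by 0.95 (SE 0.12), from 10.58, 10.81, 11.18 and 10.96 to 11.86, 11.80, 11.89 and 11.76. The membrane-bound relative Canx did not pass the threshold (0.04, SE 0.0788, adjusted p = 0.705). Casq1, the calsequestrin of skeletal muscle, was the member that fell (-0.56), at levels below the median of every array.

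Of these 15 genes and Pdia4, which was not measured, 15 had a RefSeq promoter. In the same 250-base window 4 of these 15 genes, which have 18 promoters, held the whole ERSE and 1 held ERSE-II. Of all promoters, counted singly, 0.113% and 0.0304% held them. The ERSE is known from promoters of ER chaperone genes such as these, so the matches are no test of enrichment. Any link between the matches and the rises was not tested. Of the 8 genes of this list that rose, Hsp90b1, Nucb1, Hspa5 and Calr held a match, Calu, Sdf4 and Selenok held none, and Rcn1 had no promoter to search. Canx held a match and did not pass the threshold. Atp2a2 and Cckar could not be searched. The sites are given to compare the letters of the matches. Capitals mark the fixed letters, read on the strand of the gene.
Calr, ERSE, chr8:84847075-84847093, minus strand: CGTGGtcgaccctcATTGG
Canx, ERSE, chr11:50325800-50325818, minus strand: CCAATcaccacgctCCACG
Hspa5, ERSE, chr2:34772025-34772043, plus strand: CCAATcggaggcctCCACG
Hsp90b1, ERSE, chr10:86705638-86705656, minus strand: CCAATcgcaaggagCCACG
Hsp90b1, ERSE, chr10:86705533-86705551, minus strand: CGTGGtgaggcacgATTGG
Nucb1, ERSE-II, chr7:45510439-45510449, minus strand: CGTGGaCCAAT

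**Figure D4:**
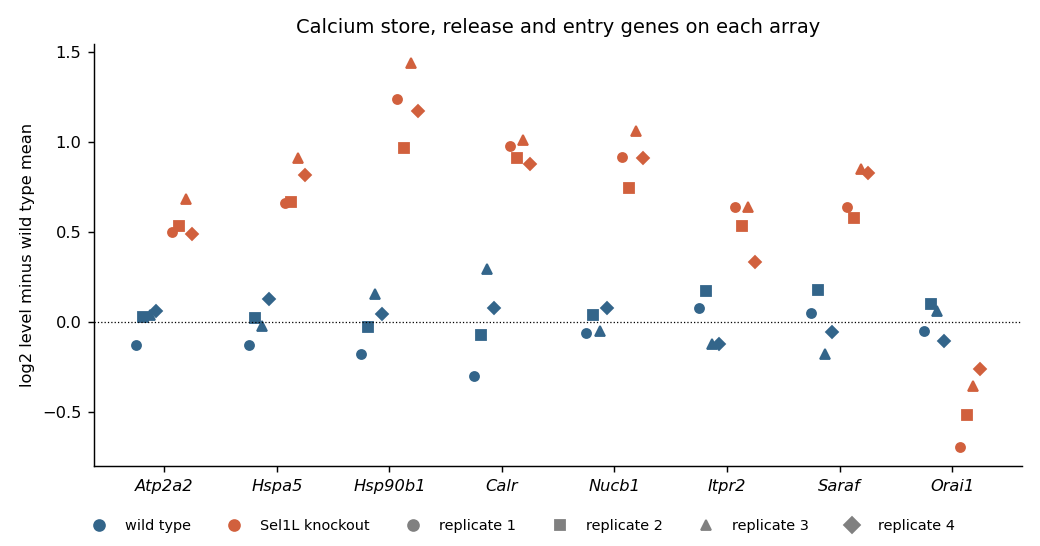
Log2 level on each array minus the wild type mean. Shown are the pump Atp2a2, 4 genes of the ER lumen calcium-binding list, the release channel Itpr2, the entry inhibitor Saraf and the entry pore Orai1. Blue is wild type, orange Sel1L knockout, and symbols give the replicate number. All 4 knockout arrays lie above all 4 wild type arrays for the first 7 genes and below them for Orai1. Every gene shown was picked from those that passed the threshold, so the separation is no further result. Groups did not overlap in 32.2% of all genes tested. Itpr3, Canx, Stim2 and Orai2, of the same roles, did not pass and are not shown.

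Beyond Stim1 and Orai1, 3 of 14 genes in the list of store-operated entry rose and 3 fell (42.9%, against 28.7% of all genes). The list is broader than its name, as it also holds the channel genes Piezo1, Trpv4, Trpv6 and Trpc6. Of these, Trpc6 is among the 3 that rose. Saraf, whose product switches STIM1-driven entry off, was 9.68, 9.81, 9.45 and 9.58 in wild type and 10.27, 10.21, 10.48 and 10.46 in knockout, a rise of 0.72 (SE 0.103, limma adjusted p = 0.00105). Cracr2a, a cytosolic calcium sensor that favours Orai1 opening, fell by 0.54 (SE 0.108). The paralogues Stim2 (-0.03, adjusted p = 0.757), Orai2 (0.13, adjusted p = 0.468) and Orai3 (0.20, adjusted p = 0.138) did not pass the threshold. Trpc6 rose by 0.45 (SE 0.0916) at levels below the median of every array. Of 13 other pumps and exchangers 2 rose and 1 fell (23.1%), none under every setting, and 8 of the 13 lay below the median of every array.

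Mitochondria next to the ER take up released calcium. Of 12 genes measured 1 rose and 3 fell (33.3%, against 28.7% of all genes). The uniporter pore Mcu fell by 0.46 (SE 0.103) and Letm1, a cation exchanger of the inner membrane, by 0.64 (SE 0.0987). The outer membrane channel Vdac3 rose by 0.80 (SE 0.0886). In the list of calmodulin, calcineurin and CaM kinases 3 of 20 rose and 5 fell (40.0%). The calcineurin catalytic subunit genes Ppp3cc and Ppp3ca rose, by 1.41 (SE 0.123) and 0.49 (SE 0.0821), though Ppp3cc by 0.52 when all its features were averaged, and the calcineurin-dependent factor Nfatc2 fell by 0.60 (SE 0.0862).

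Of 14 channels and transporters of fluid secretion 1 rose and 4 fell (35.7%, against 28.7% of all genes). Slc26a6, an apical chloride-bicarbonate exchanger, fell by 1.34 (SE 0.146), the potassium channel gene Kcnq1 by 0.93 (SE 0.0964) and Aqp12, an aquaporin of acinar cells, by 0.46 (SE 0.0862). Aqp8, the other acinar aquaporin on the list, rose by 1.14 (SE 0.184). The calcium-activated chloride channel gene Ano1 was not among the genes that kept their call throughout.

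For each gene of the original list that changed, those whose level followed it most closely over the 8 arrays were found by Pearson correlation, as a description that the split between genotypes dominates. They were Clcn2 (r = 0.994) and Tmem131 (0.993) for Cckar, Cdk15 (0.983) and Lgals12 (0.982) for Vipr1, and Aoc2 (0.993) and Zfp101 (0.988) for Itpr2. For Atp2a2 they were Ogt (0.995) and Zc3h7a (0.994), and for Orai1 the unnamed gene 1700001G17Rik (0.988) and Arhgap20os (0.983).

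Markers of the cell types in the tissue were set beside these values, and their counts stand against 28.7% of all genes called, 16.1% higher and 12.6% lower. Among the 9410 genes above the median level, 3013 were higher and 1163 lower. Lists of bright genes, such as the endothelial one, thus meet a larger background share of rises than 16.1%. The mean level of the acinar markers was 11.93 to 12.03 in wild type and 11.65 to 11.73 in knockout, and 5 of 9 measured fell and 0 rose. Syt8, among those that fell, lay below the median of every array. The part of acinar markers in the falls of Cckar, Vipr1 and Orai1 was not tested. Endothelial markers had 6 of 12 higher and 0 lower, with a mean of 7.05 to 7.27 in wild type and 7.33 to 7.53 in knockout. Their part in the rises of Itpr2, Vipr2 and Rgs2, which are not limited to acinar cells, was not tested. In the lymphocyte list, relevant to Vipr1, 1 of 10 fell, the mean was 3.89 to 4.40 in wild type and 3.93 to 4.26 in knockout, and 6 of 10 lay below the median of every array. Macrophage markers had 0 of 12 called, with a mean of 6.01 to 8.21 in wild type and 7.12 to 8.10 in knockout. Stellate cell markers had 1 of 12 higher, with a mean of 6.74 to 8.10 in wild type and 7.52 to 8.16 in knockout. In both lists the lowest wild type mean was that of replicate 2. This array widened the wild type spread, so these 2 counts cannot show whether macrophages or stellate cells differed between the groups. Islet markers had 1 of 10 higher and 2 lower. In muscle 2 of 10 rose and 1 fell, like the islet list near the share over all genes (30.0%), and in neurons and Schwann cells 1 of 5 and in adipocytes 1 of 7 fell. Without wild type replicate 2, whose macrophage and stellate cell markers stood apart, the same count of 5 of 9 signalling genes was called, 2 higher and 3 lower.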

How the data were processed

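Total RNA of pancreas (100 ng per array) was profiled on 8 arrays. The submitters' processing notes name RMA, which corrects background, normalizes between arrays and summarises probes per feature; for its version and chip definition, and for which arrays it ran on together, nothing is given in the sources used here. The scale of the values as deposited was taken as log2 because RMA gives log2 and they ran from 0.964 to 14.4; no header names the base. Of 35556 features, 21218 had 1 gene symbol in the platform annotation, 1881 had several and 12457 had none listed; the last 2 kinds were left out. Entrez identifiers matched RefSeq (GRCm38.p6) for 21185 features and changed 0 symbols. Of several features per gene the one with the highest mean was kept (2398 left out), with no filter on dim genes. limma 3.58.1 in R 4.3.3 (lmFit, eBayes, 6 residual degrees of freedom) was fitted with genotype alone. Errors are moderated standard errors and intervals are 95%. The number of arrays limits the precision. The genes, lists and motifs were chosen with earlier results of these data known. Named pathway genes were at most 3 per list and direction by smallest p, narrowed after the data had been seen to those called under every setting; others are said to be outside this. On simulated data with 200 of 18820 genes changed between 4 and 4 arrays, the fit recovered 35% of changes of 0.5 and 85% of changes of 1 (log2), with 11 false calls among 131; the real data hold far more changes.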

Additional observations from a re-analysis of the deposited data

Results flagged for a closer look

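A single array lay far from the other 3 of its group for 3 of 122 pairs of gene and group examined, which were the 9 measured members, Sel1l and the 51 pathway genes of smallest p among those called in each list and direction; chance gives about 5% of such pairs. Sel1l was 11.45 in Sel1L knockout replicate 4 and 11.66 to 11.70 in the other knockout arrays. Grpr was 6.87 in Sel1L knockout replicate 2 against 6.40 to 6.48. Prkar2b was 4.37 in Sel1L knockout replicate 1 against 3.88 to 3.91. None of the 9 measured members of the secretagogue and calcium list had such an array in either group. Outside these pairs, and picked out with its values known, Camk2b, a calcium and calmodulin-dependent kinase gene, was 5.08 in Sel1L knockout replicate 4 and 9.34 to 9.75 in the other knockout arrays.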

How the results depend on the processing

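The 17 other settings were quantile normalization, median centring, cyclic loess, genes above the median level, the mean of all features, every feature by itself, trend and robust variance, array weights, a replicate block, and omitting each of the 8 arrays. Cckar, Vipr1, Itpr2, Atp2a2 and Orai1 kept direction and call under all 17, with highest adjusted p-values of 0.0456, 0.0159, 0.0230, 0.00666 and 0.0357. Chrm3 and Sctr stayed short of the threshold under every setting that tested them, Itpr3 passed under 1 and Stim1 under 9, and 0 differences changed sign. Between 5 and 7 of the 9 genes were called; Sctr was not tested among genes above the median level. Without single arrays, 5 or 6 of the 9, 44 to 62 of the 172 pathway genes and 3721 to 5227 of all genes were called. With the replicate block 5, 51 and 4678 were called. Deviations of same-numbered arrays correlated at 0.222, 0.153, -0.273 and -0.0195, and only replicate 1 matched its own number best. No consistent pairing by number was seen, but so few correlations cannot exclude one. Over the 51 pathway genes of smallest p in each list and direction, 751 of 857 values stayed on their side of the threshold, 106 lost it and 0 turned. Levels near the array medians, as for Sctr and Orai1, limit the size of a difference.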
